A study of Mus musculus with 8 samples.

Results

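Expression of 8 transcription factors of the macrophage lineage was followed in the mouse cerebral cortex, namely Spi1, Cebpa, Cebpb, Runx1, Ikzf1, Bhlhe41, Nr1h3 and Mitf. They were picked by gene symbol, and all 8 were found among the 54752 genes counted. The libraries hold RNA of the right cerebral cortex of wild-type (WT) C57BL/6 mice 3 weeks after surgery, with 4 mice in the Sham group and 4 in the BCAS group and 1 mouse per library. In bilateral carotid artery stenosis (BCAS), wire coils placed around both common carotid arteries lower the blood flow to the brain, and the coil on the right, the sampled side, was the narrower one. Sham mice underwent the operation but received no coils. According to the study's methods the animals were adult males, so the comparison says nothing of females, and each library is a piece of whole cortex with neurons, glia and vessels in it.

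Macrophages, including the microglia of the brain, arise under a small set of DNA-binding proteins. PU.1, the product of Spi1, is the master regulator of the myeloid lineage and binds most macrophage enhancers together with C/EBP proteins, of which Cebpa encodes the alpha and Cebpb the beta form. RUNX1 is needed for the emergence of blood cells and opens the Spi1 locus early in development, while Ikaros, the product of Ikzf1, is a zinc finger protein of blood cell precursors, lymphocytes and myeloid cells. The other 3 are less bound to the lineage. Bhlhe41 encodes a basic helix-loop-helix repressor of macrophages that is also part of the circadian clock, Nr1h3 encodes the liver X receptor alpha (LXRα), which senses oxysterols and turns on cholesterol efflux, and Mitf encodes a leucine zipper protein of melanocytes, osteoclasts and macrophages that acts on lysosomal and pigment genes.

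The total count per library ranged from 16759364 to 21794435, so that 3 counts in the smallest library equal 0.187 CPM (counts scaled to a common library size after normalization). All 7 neuronal markers looked at were present, with a summed level of 7715 to 9317 CPM in the Sham libraries, as in cortex. The BCAS libraries were spread widely. On the first principal component of all tested genes, which held 55.7% of the variance, the Sham libraries lay between -83.9 and -72.6, whereas BCAS 2 lay at -17.7 and BCAS 1 at 178. Values without each of these libraries are therefore given for each factor. Gene positions are those of the count tables, on mm10.

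Promoter sequences were looked up for the factors in the RefSeq table of the GRCm38.p6 build, which is the coordinate system of mm10. Each entry runs from 250 bases before to 50 after a start site. Spi1 had no entry and the other 7 genes had 12. Each was searched on both strands for the short core letters that members of this group are known to bind, to show which factors carry the letters of another factor of the set. The cores were GAGGAA for PU.1, TTGCNNAA for C/EBP, TGTGGT for RUNX, the E-box CACGTG for Bhlhe41 and MITF, TGGGAA for Ikaros and AGGTCA, a half-site, for LXR. They do not overlap in the stretches printed here. Such cores are common. They occur in 28.3% (PU.1), 10.8% (C/EBP), 16.8% (RUNX), 7.15% (E-box), 25.6% (Ikaros) and 16.3% (LXR) of the 32851 promoters in the table.

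The following stretches of 100 bases, written 5′ to 3′ on the strand of the gene with the matching letters in capitals, lie outside annotated exons. The Runx1 stretch, chr16:92697330-92697429 on the minus strand, lies inside the gene, before its downstream start site, and holds the PU.1 core on the opposite strand. The Bhlhe41 stretch, chr6:145865561-145865660 on the minus strand, lies before the gene and holds the E-box, the core that its own product binds. The Nr1h3 stretch, chr2:91195157-91195256 on the minus strand, lies inside the gene and holds the Ikaros core once on each strand. The Mitf stretch, chr6:97806888-97806987 on the plus strand, lies before the gene and holds, in order, the LXR half-site on the opposite strand, the C/EBP core and the RUNX core on the opposite strand.
Runx1: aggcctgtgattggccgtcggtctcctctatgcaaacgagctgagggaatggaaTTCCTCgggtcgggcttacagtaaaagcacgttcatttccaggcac
Bhlhe41: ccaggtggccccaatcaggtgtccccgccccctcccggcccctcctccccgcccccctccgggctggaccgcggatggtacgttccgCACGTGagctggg
Nr1h3: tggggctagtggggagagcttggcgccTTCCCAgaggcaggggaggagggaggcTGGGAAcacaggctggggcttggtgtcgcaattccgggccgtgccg
Mitf: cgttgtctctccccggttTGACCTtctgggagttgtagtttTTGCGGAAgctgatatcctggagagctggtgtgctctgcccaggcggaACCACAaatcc

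The other entries held 2 RUNX cores and an E-box in the upstream Runx1 promoter, a PU.1 core in a second Nr1h3 entry that overlaps the first, and a C/EBP core in a second Mitf entry. These letters were absent from the single entries of Cebpa and Cebpb, from both entries of Ikzf1 and from the third of Mitf. The matches describe the sequence only. Binding was not measured here.

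Of the 8 factors 6 rose in the BCAS cortex by the rule of an adjusted p under 0.05 and a log2 fold change above 1 in edgeR's quasi-likelihood test, against 11.0% of the 17136 tested genes that were higher by this rule, 1.28% that were lower and 12.2% in either direction. They fell into an upper and a lower range of fold change. Runx1, Spi1, Ikzf1 and Cebpa were 7.18- to 13.5-fold higher, whereas Nr1h3 and Cebpb were 2.60- and 2.24-fold higher and Bhlhe41 and Mitf were just under the fold threshold. By the adjusted p alone all 8 were higher, against 19.2% of tested genes (12.8% were lower and 32.0% differed in either direction). The lowest BCAS library was above the highest Sham library for all 8, which held for 18.5% of tested genes, while 16.3% had the BCAS libraries all below. The median log2 fold change of the 8 was 2.11, with a range from 0.98 to 3.75, beside -0.01 over all tested genes. None of them depended on the BCAS group to be tested, since the lowest count of any factor in any library was 17. In tissue libraries of this kind, more cells of a type and more RNA per cell cannot be told apart.

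**Figure D1:**
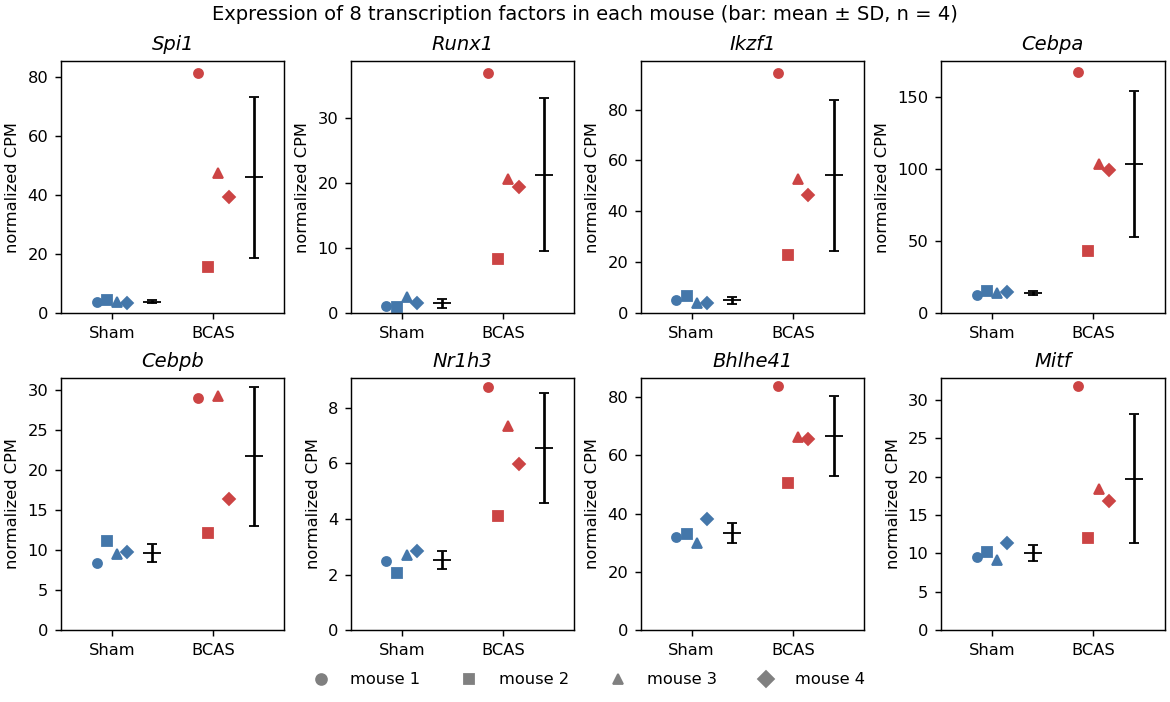
Normalized CPM (y axis, linear, starting at 0, each panel on its own scale) of the 8 transcription factors in the 4 Sham (blue) and 4 BCAS (red) libraries, with a symbol shape for each mouse number and the mean ± SD in black. The BCAS points lie above all Sham points in all 8 panels, and the spread among BCAS mice is wide, from 15.9 to 81.5 CPM for Spi1.

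Spi1 (ENSMUSG00000002111.8, chr2:91082390-91115756, plus strand) shares no exon bases with another gene in the annotation. It had 3.98, 4.56, 3.83 and 3.68 CPM in the Sham libraries 1 to 4 and 81.5, 15.9, 47.5 and 39.4 CPM in the BCAS libraries 1 to 4. Sham mice were thus tightly grouped, and the lowest BCAS mouse, BCAS 2, was still well above them. The means were 4.01 ± 0.382 and 46.1 ± 27.2 CPM (SD, n = 4 each), an 11.5-fold difference with a log2 fold change of 3.52 ± 0.44 (SE) and a 95% interval of 2.53 to 4.52 (adjusted p = 0.00205, edgeR quasi-likelihood test). The log2 fold change was 3.11 without BCAS 1 and 3.82 without BCAS 2.

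Runx1 (ENSMUSG00000022952.17, chr16:92601466-92826149, minus strand) had the largest fold change and the lowest Sham level of the set. Its counts were 19, 17, 45 and 26 in the Sham and 840, 161, 382 and 356 in the BCAS libraries, or 1.08, 1.06, 2.57 and 1.57 against 36.9, 8.29, 20.6 and 19.4 CPM. The means were 1.57 ± 0.709 and 21.3 ± 11.8 CPM (SD, n = 4 each). Sham 3 stood above the other Sham mice but below every BCAS mouse. The log2 fold change was 3.75 ± 0.48 (SE), or 13.5-fold, with a 95% interval of 2.66 to 4.84 (adjusted p = 0.00214, edgeR quasi-likelihood test). It was 4.09 without Sham 3, 3.36 without BCAS 1 and 4.03 without BCAS 2. Another gene on the opposite strand, Gm26626, covers 0.88% of its exon bases.

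Ikzf1 (ENSMUSG00000018654.17, chr11:11685003-11772926, plus strand) had 5.28, 6.80, 4.23 and 4.16 CPM in Sham and 94.5, 23.0, 52.6 and 46.6 CPM in BCAS mice. The order of the BCAS mice was the one seen for Spi1. From a mean of 5.12 ± 1.23 it was 54.1 ± 29.8 CPM (SD, n = 4 each) in BCAS mice, 10.6-fold higher, with a log2 fold change of 3.40 ± 0.41 (SE) and a 95% interval of 2.49 to 4.32 (adjusted p = 0.00195, edgeR quasi-likelihood test). Without BCAS 1 the log2 fold change was 3.01, and without BCAS 2 it was 3.67. No other gene covers its exons.

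Cebpa (ENSMUSG00000034957.10, chr7:35119293-35121928, plus strand) was at 12.6, 15.8, 14.5 and 14.8 CPM in Sham and at 167, 43.6, 104 and 99.8 CPM in BCAS mice. BCAS 1 stood highest and BCAS 2 lowest of the BCAS mice here too. The means were 14.4 ± 1.37 and 104 ± 50.6 CPM (SD, n = 4 each), and the log2 fold change was 2.84 ± 0.35 (SE), or 7.18-fold, with a 95% interval of 2.06 to 3.63 (adjusted p = 0.00198, edgeR quasi-likelihood test). It was 2.53 without BCAS 1 and 3.11 without BCAS 2. A gene on the opposite strand, Gm45091, covers 1.93% of its exon bases, and the recorded counting used no strand.

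Cebpb (ENSMUSG00000056501.3, chr2:167688915-167690418, plus strand), whose product drives the acute-phase and inflammatory genes of macrophages, followed another pattern. It had 8.35, 11.1, 9.55 and 9.78 CPM in Sham and 29.1, 12.2, 29.3 and 16.5 CPM in BCAS mice. BCAS 2 lay only just above the highest Sham mouse, and BCAS 3 reached the level of BCAS 1. The mean went from 9.70 ± 1.13 to 21.7 ± 8.74 CPM (SD, n = 4 each), 2.24-fold, with a log2 fold change of 1.17 ± 0.28 (SE) and a 95% interval of 0.54 to 1.79 (adjusted p = 0.0162, edgeR quasi-likelihood test). The call was the least firm of the 6. It was lost without Sham 1 (adjusted p = 0.0537, edgeR) and without BCAS 3 (log2 fold change 0.99), while the log2 fold change was 1.01 without BCAS 1 and 1.38 without BCAS 2. Tmem189 on the opposite strand covers 20.7% of the exon bases of Cebpb and had a log2 fold change of 0.40 ± 0.12 (SE, adjusted p = 0.0324, edgeR quasi-likelihood test), and its part in the value of Cebpb was not tested.

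Nr1h3 (ENSMUSG00000002108.10, chr2:91184061-91202834, minus strand) was at 2.50, 2.06, 2.69 and 2.84 CPM in Sham and at 8.75, 4.12, 7.35 and 5.99 CPM in BCAS mice. The groups did not overlap, and BCAS 2 was again the lowest BCAS mouse. The means were 2.52 ± 0.337 and 6.55 ± 1.97 CPM (SD, n = 4 each), and the log2 fold change was 1.38 ± 0.25 (SE), or 2.60-fold, with a 95% interval of 0.81 to 1.94 (adjusted p = 0.00644, edgeR quasi-likelihood test). It was 1.22 without BCAS 1 and 1.56 without BCAS 2. Gm13783 on the same strand covers 1.35% of its exon bases.

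Bhlhe41 (ENSMUSG00000030256.11, chr6:145858243-145865558, minus strand) had the highest Sham CPM of the set. It was at 32.1, 33.1, 30.0 and 38.1 CPM in Sham and at 83.9, 50.3, 66.4 and 65.8 CPM in BCAS mice, with no overlap. The means were 33.3 ± 3.46 and 66.6 ± 13.7 CPM (SD, n = 4 each), and the log2 fold change of 1.00 ± 0.15 (SE, 95% interval 0.66 to 1.34, adjusted p = 0.00330, edgeR quasi-likelihood test) fell just short of 1 before rounding. Its relative SD among BCAS mice was the smallest of the 8. It passed the fold threshold in 4 of the 8 fits that left out 1 mouse, those without Sham 4 (log2 fold change 1.06), BCAS 2 (1.13), BCAS 3 (1.00) and BCAS 4 (1.01), and had its lowest value without BCAS 1 (0.88). Gm43909 on the opposite strand covers 19.1% of its exon bases, with 9 to 25 counts in the Sham and 26 to 37 in the BCAS libraries.

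Mitf (ENSMUSG00000035158.15, chr6:97807052-98021349, plus strand) was at 9.55, 10.2, 9.09 and 11.4 CPM in Sham and at 31.8, 12.1, 18.4 and 16.8 CPM in BCAS mice. BCAS 1 stood far above the other BCAS mice, and BCAS 2 was close to Sham 4. The means were 10.1 ± 1.00 and 19.8 ± 8.46 CPM (SD, n = 4 each), with a log2 fold change of 0.98 ± 0.27 (SE), a 95% interval of 0.38 to 1.58 and an adjusted p of 0.0256 by edgeR's quasi-likelihood test. Without BCAS 1 the log2 fold change was 0.66, without BCAS 2 it was 1.17, and without BCAS 4 it was 1.05, so that the gene was called in the last pair of fits. The adjusted p was over 0.05 when any single Sham mouse or BCAS 3 was left out (0.0535 to 0.0715, edgeR). No other gene covers its exons. The markers of melanocytes, the other cells known for Mitf, were low, with a summed level of 0.801 to 5.73 CPM in Sham and 0.721 to 2.51 CPM in BCAS libraries over 5 genes, of which 1 could be tested and was not called.

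**Figure D2:**
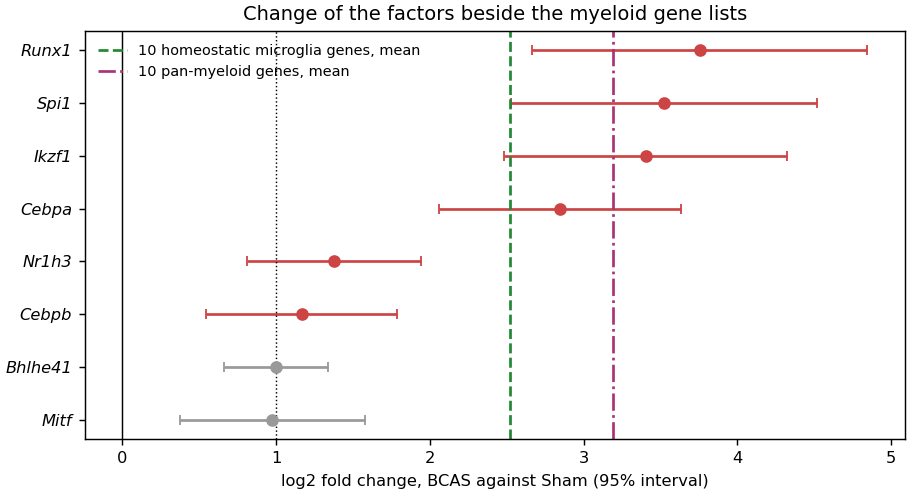
Log2 fold change of BCAS against Sham mice (x axis) with its 95% interval for each factor from edgeR's quasi-likelihood fit, in red where it was called and in grey where it was not. The dotted line marks a log2 fold change of 1, and the broken lines mark the mean difference of 10 homeostatic microglia genes (2.52) and 10 pan-myeloid genes (3.19). The 4 upper intervals lie on or around these lines, and the upper ends of the 4 lower intervals, at most 1.94, lie below both.

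BCAS 1 was the highest and BCAS 2 the lowest of the BCAS mice for 7 of the 8 factors, the exception being Cebpb, for which BCAS 3 was the highest. The same order was found in 86.5% of the genes called higher and in 27.4% of all tested genes, so most genes called higher share it with these factors. The size of the spread differed between them. Relative to the Sham mean, Spi1 stood at log2 4.31 in BCAS 1 and 1.96 in BCAS 2, whereas Bhlhe41 stood at 1.34 and 0.60.

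**Figure D3:**
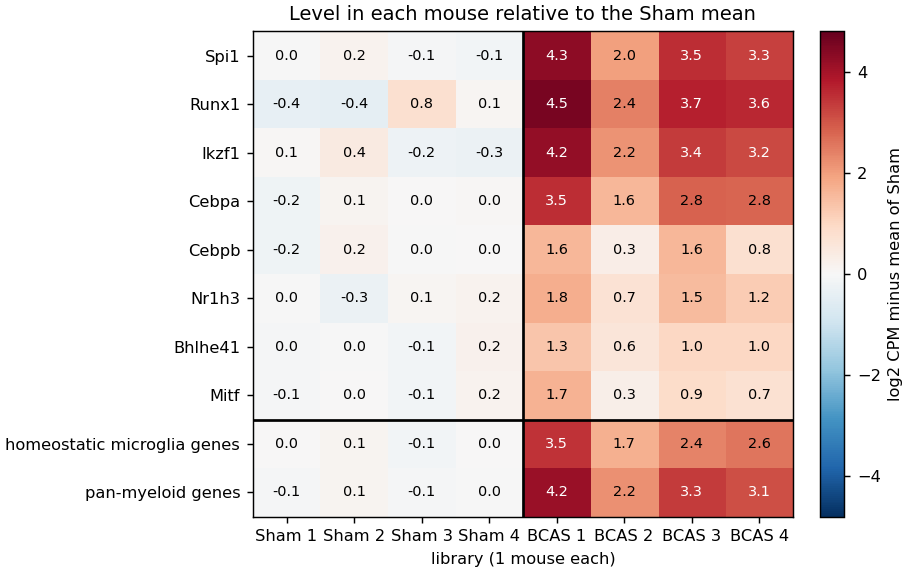
Log2 CPM relative to the Sham mean (colour and printed value) of the 8 factors and of the mean of 2 myeloid gene lists (rows) in each of the 8 libraries (columns, 1 mouse each). Spi1, Runx1, Ikzf1 and Cebpa share with the rows of the lists the darkest red in BCAS 1 and the palest in BCAS 2, while the other 4 factors reach at most 1.8 in any BCAS mouse.

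Levels of different genes were compared as TPM, which divides the counts by gene length before scaling. In Sham mice Cebpb (27.2 ± 3.18 TPM), Cebpa (23.1 ± 2.37) and Bhlhe41 (20.9 ± 2.16, all SD, n = 4) were the highest, and neighbours among them overlapped between libraries. A gap followed down to Mitf (6.84 ± 0.677) and Spi1 (6.27 ± 0.507), which overlapped, and another to Nr1h3 (4.24 ± 0.646) and Ikzf1 (3.72 ± 0.818), which also overlapped. Runx1 was the lowest at 0.556 ± 0.269 TPM and lay apart from the rest.

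The order differed in BCAS mice. Cebpa led with 163 ± 74.9 TPM and was followed by Spi1 with 70.5 ± 39.5, Cebpb with 59.9 ± 22.4, Bhlhe41 with 41.3 ± 7.28 and Ikzf1 with 38.7 ± 20.1 TPM (SD, n = 4). Mitf with 13.2 ± 5.20, Nr1h3 with 10.8 ± 2.93 and Runx1 with 7.32 ± 3.84 TPM closed the order. The ranges of every neighbouring pair in this order overlapped across the BCAS mice. Within each BCAS library, however, Cebpa was above Spi1, Cebpb above Bhlhe41, Ikzf1 above Mitf, Mitf above Nr1h3 and Nr1h3 above Runx1. The order of Spi1 and Cebpb, and that of Bhlhe41 and Ikzf1, differed between BCAS libraries.

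Ratios within a library leave out the large differences between BCAS mice. The TPM of Cebpa over that of Cebpb was 0.858, 0.814, 0.868 and 0.863 in the Sham and 3.29, 2.04, 2.02 and 3.46 in the BCAS libraries. The C/EBP factor at the higher level was therefore Cebpb in all 4 Sham mice and Cebpa in all 4 BCAS mice. The ratio of Ikzf1 to Spi1, by contrast, overlapped between the groups, at 0.590 ± 0.0851 in Sham and 0.571 ± 0.0712 in BCAS mice (SD, n = 4), and so did that of Runx1 to Spi1, at 0.0898 ± 0.0446 and 0.107 ± 0.00884. These ratios were chosen after the values were seen and are given as a description.

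The question whether a factor moved with the myeloid genes of the same mouse was addressed by subtracting, in each library, the mean log2 CPM of a marker list from that of the factor. Markers of homeostatic microglia, such as P2ry12 and Tmem119, were called higher in 10 of 10, with a summed level of 318 to 382 CPM in Sham and 1288 to 4728 CPM in BCAS libraries. Pan-myeloid genes, such as Ptprc and Tyrobp, were called higher in 9 of 10, with 332 to 371 and 1330 to 5321 CPM. The gene not called was Coro1a, with a log2 fold change of 0.41. The mean log2 level of the lists differed by 2.52 and 3.19 between the groups. An exact two-sided permutation test over the 70 arrangements of the libraries was used, whose smallest p is 0.0286, and p-values were adjusted over the 16 combinations of factor and list.

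Against homeostatic microglia genes, Spi1 rose by a further 0.74 ± 0.19 (SE) on the log2 scale and Ikzf1 by 0.71 ± 0.17 (exact permutation p = 0.0286 and adjusted p = 0.0416 for each, n = 4 and 4). For Runx1 the difference was 1.05 ± 0.35 (exact permutation p = 0.0571, adjusted p = 0.0762), and Sham 3 lay above BCAS 2. For Cebpa it was 0.16 ± 0.14 (exact permutation p = 0.314, adjusted p = 0.359). Leaving out 1 mouse moved this value of Cebpa to between 0.06 (without BCAS 3) and 0.25 (without BCAS 2). With the summed CPM of the list in place of its mean log2 CPM, the value of Ikzf1 was 0.46 and no longer passed, and that of Cebpa was -0.08.

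Spi1, Ikzf1 and Runx1 lay closer to the pan-myeloid genes, and Cebpa lay further from them. The mean of this list is lowered by Coro1a, with a log2 fold change of 0.41. The other genes of the list ran from 2.76 (Csf1r) to 4.32 (Tyrobp). The closeness therefore depends in part on Coro1a, and the differences without it were not computed. The differences were 0.08 ± 0.10 for Spi1 (exact permutation p = 0.486), 0.04 ± 0.13 for Ikzf1 (exact permutation p = 0.886) and 0.38 ± 0.31 for Runx1 (exact permutation p = 0.286), none of them with a p under 0.05. With the summed CPM of the list the values were 0.31 for Spi1, 0.27 for Ikzf1 and 0.61 for Runx1, and the exact permutation p was over 0.05 for each. Single mice moved these values. The difference of Runx1 was 0.65 ± 0.21 (SE) without Sham 3 and 0.19 without Sham 2, that of Spi1 was 0.17 ± 0.03 (SE) without BCAS 2 and as low as 0.04 without BCAS 3, and that of Ikzf1 ran from -0.04 without Sham 4 to 0.14 without Sham 2. With 3 mice against 4, the smallest exact permutation p is 0.0571. Cebpa fell by 0.50 ± 0.09 relative to this list (exact permutation p = 0.0286, adjusted p = 0.0416), but by 0.27 with the summed CPM, where the p was over 0.05.

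Cebpb, Nr1h3, Bhlhe41 and Mitf stayed behind both lists in all 4 BCAS mice. Against the homeostatic microglia genes the differences were -1.46 ± 0.26 for Cebpb, -1.23 ± 0.23 for Nr1h3, -1.55 ± 0.23 for Bhlhe41 and -1.64 ± 0.12 for Mitf (SE, log2 scale). Against the pan-myeloid genes they were -2.13 ± 0.20, -1.89 ± 0.23, -2.21 ± 0.27 and -2.31 ± 0.15 in the same order. All 8 of these values had an exact permutation p of 0.0286, the smallest possible, and an adjusted p of 0.0416.

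**Figure D4:**
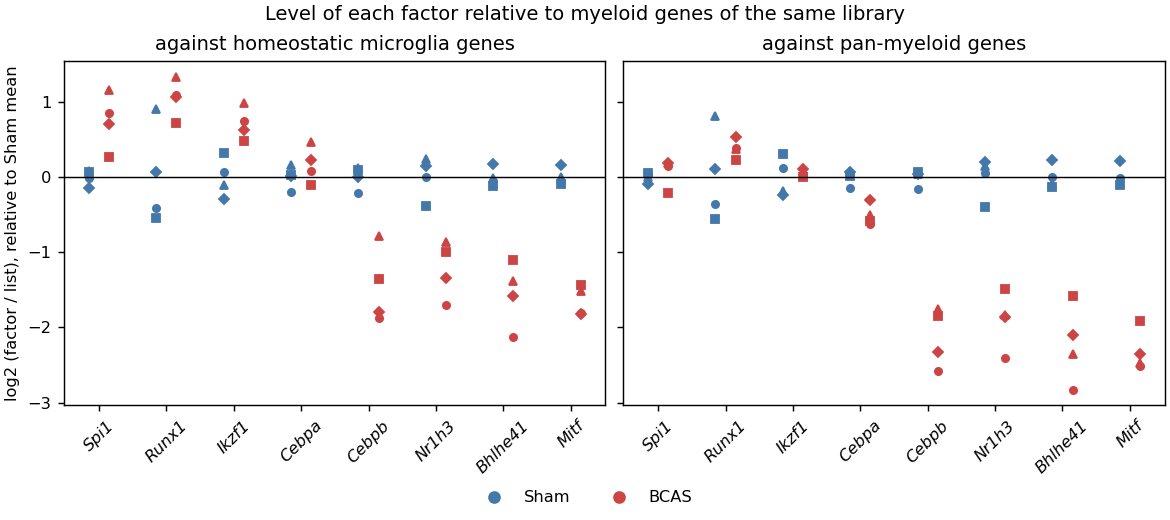
Log2 ratio of each factor to the mean of 10 homeostatic microglia genes (left) and of 10 pan-myeloid genes (right) in the same library, relative to the Sham mean (y axis), for Sham (blue) and BCAS (red) mice, with a symbol shape for each mouse number as in the plot of CPM. Spi1, Runx1 and Ikzf1 lie around or above 0 in BCAS mice, while Cebpb, Nr1h3, Bhlhe41 and Mitf lie below all Sham mice in both panels.

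Other cell types moved with the groups as well, and their part in the values of the 8 factors was not tested. Markers of border-associated macrophages were called higher in 5 of 7, of which Ms4a7 and Cbr2 passed the filter on low counts only through the BCAS libraries, and the list summed to 17.3 to 21.3 CPM in Sham and 32.1 to 118 CPM in BCAS libraries. Monocyte and neutrophil markers summed to 0.965 to 1.77 CPM and 3.61 to 84.8 CPM, with the highest sums in BCAS 1 and BCAS 3. Of these 10 markers, Ly6c2 and Ccr2 could be tested and were called higher, and both passed the filter on low counts only through the BCAS libraries. Of the neutrophil genes, Ly6g and Elane were at 0 in all 8 libraries, whereas S100a9 had 0 to 6 counts in the Sham and 7 to 98 in the BCAS libraries and Cxcr2 had 0 to 2 and 0 to 71. Lymphocyte markers summed to 2.40 to 5.43 and 5.77 to 58.6 CPM, and of the 8 genes Cd4 and Cd8a were tested and called higher, of which Cd8a, with at most 3 counts in any Sham library, also passed the filter only through the BCAS libraries. Of endothelial and fibroblast genes 3 of 6 were called higher (201 to 252 and 297 to 894 CPM), namely the fibroblast genes Col1a1, Col1a2 and Dcn. The endothelial genes Pecam1, Cldn5 and Flt1, with log2 fold changes of 0.58, 0.39 and 0.17, were not. Pecam1 was higher by the adjusted p alone (adjusted p = 0.0283, edgeR). Higher calls were made for astrocyte genes in 1 of 6, and 4 of 6 were higher by the adjusted p alone (edgeR, 5033 to 5935 and 5898 to 6857 CPM). Among neuronal genes 1 of 7 was called lower and 6 of 7 were lower by the adjusted p alone (edgeR). Their median log2 fold change was -0.84 (7715 to 9317 and 2746 to 6432 CPM). Of 6 oligodendrocyte genes, 0 were called by edgeR, DESeq2 or limma, and 0 had an unadjusted p under 0.05.

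Relatives of the 8 factors and the proteins that bind DNA with them were followed next. Of 22 such genes 16 were tested and 3 were called higher, with a median log2 fold change of 0.59, beside 2.11 for the 8 factors and -0.01 for all genes. The largest was that of Irf8, the interferon regulatory factor that pairs with PU.1, at 3.96 ± 0.45 (SE, adjusted p = 0.00176, edgeR quasi-likelihood test). Its level went from 7.04 ± 1.72 to 109 ± 62.8 CPM (SD, n = 4 each). Cebpd, the delta form of C/EBP, had a log2 fold change of 2.69 ± 0.37 (SE, adjusted p = 0.00254, edgeR), and Tfeb, the lysosomal relative of Mitf, one of 1.06 ± 0.27 (SE, adjusted p = 0.0201, edgeR).

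Several direct counterparts are set beside the factors here, chosen for their family relation after the values were seen. Bhlhe40, the close relative of Bhlhe41, had a log2 fold change of -0.08 (adjusted p = 0.701, edgeR), and Nr1h2, the other liver X receptor, one of 0.09 (adjusted p = 0.612, edgeR). Cbfb, the partner that RUNX1 needs to bind DNA well, had 0.98 (adjusted p = 0.00994, edgeR). Within each library the TPM of Nr1h3 over that of Nr1h2 went from 0.0663 ± 0.0157 in Sham to 0.155 ± 0.0305 in BCAS mice (SD, n = 4), and that of Bhlhe41 over Bhlhe40 from 0.213 ± 0.0422 to 0.440 ± 0.108, with no overlap of the groups in either. The groups did overlap for Mitf over Tfeb, at 1.07 ± 0.276 and 0.943 ± 0.110, and for Cebpa over Cebpd, at 4.46 ± 0.960 and 4.78 ± 0.437.

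The other 6 relatives were too low to pass the filter on low counts. Among them, Runx3 had 0, 0, 2 and 0 counts in the Sham and 137, 10, 60 and 26 in the BCAS libraries. Ikzf3, a relative of Ikaros best known in lymphocytes, had 2, 3, 1 and 2 against 192, 9, 113 and 36. Spib, the relative of PU.1 in B cells and plasmacytoid dendritic cells, had 2, 1, 0 and 0 against 80, 0, 35 and 5. The counts were highest in BCAS 1 and BCAS 3 for all 3, and these mice also had the highest sums of the pan-myeloid, border-associated macrophage, monocyte and neutrophil, lymphocyte, and endothelial and fibroblast markers. Not every list had this order. BCAS 4 was above BCAS 3 for the homeostatic microglia markers (2512 against 2256 CPM) and the astrocyte markers (6857 against 6124 CPM).

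In a list of other regulators of myeloid development, which again holds Irf8, 7 of 21 tested genes were called higher, of which Myb passed the filter on low counts only through the BCAS libraries. The median log2 fold change of the 21 was 0.68. The largest change was that of Irf8, already given. Of 7 tested regulators of lymphocytes 0 were called by edgeR, DESeq2 or limma, while 3 had an unadjusted p under 0.05 in edgeR, and the median log2 fold change was 0.70.

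Known target genes of the factors were followed by lists, whose calls describe the same libraries and do not measure the activity of a factor. All 12 genes of the PU.1 list were called higher, with a median log2 fold change of 3.63, but Msr1 and Il1b were so low in Sham mice that they passed the filter on low counts only through the BCAS libraries. The smallest change was that of Csf2ra, a subunit of the receptor for granulocyte-macrophage colony-stimulating factor, which was 3.04-fold higher. The largest were Cybb, the catalytic subunit of the phagocyte oxidase, at 5.49 ± 0.82 (SE, adjusted p = 0.00327, edgeR quasi-likelihood test), and Msr1, a scavenger receptor, at 5.10 ± 1.03 (SE, adjusted p = 0.00910, edgeR). The sum of the list ranged from 156 to 175 CPM in Sham and from 599 to 2410 CPM in BCAS libraries. Csf1r and Itgam of this list are also pan-myeloid markers.

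Of 12 C/EBP target genes 5 were tested and all 5 were called higher. Lcn2, which encodes lipocalin 2, had a log2 fold change of 7.68 ± 1.40 (SE, adjusted p = 0.00642, edgeR quasi-likelihood test), from 0.276 ± 0.275 to 58.7 ± 60.6 CPM (SD, n = 4 each). Lyz2, which encodes the lysozyme of macrophages and granulocytes, had one of 6.26 ± 0.78 (SE, adjusted p = 0.00203, edgeR), from 10.3 ± 1.64 to 791 ± 640 CPM. The genes not tested include Cebpe, Mpo, Elane, Ltf, Saa3 and Il6, which are mostly genes of granulocytes and of acute inflammation. Of the 5 tested, Lcn2 and Hp passed the filter on low counts only through the BCAS libraries, so the share called among those tested is not evidence about the list.

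Of 11 LXR target genes 9 were tested and 6 were called higher, with a median log2 fold change of 1.04. Abca1, the cholesterol efflux pump, had a log2 fold change of 3.02 ± 0.47 (SE, adjusted p = 0.00375, edgeR quasi-likelihood test) and Apoe, the main lipid carrier protein of the brain, one of 2.61 ± 0.42 (SE, adjusted p = 0.00410, edgeR). Both were larger than the 1.38 of Nr1h3 itself. Not all targets moved with them, since Scd1, a fatty acid desaturase, had -0.09.

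Of 7 target genes of MITF 5 were tested and 1 was called higher. This was Gpnmb, a glycoprotein of lysosomes and melanosomes, with a log2 fold change of 6.75 ± 1.03 (SE, adjusted p = 0.00347, edgeR quasi-likelihood test) and counts of 40, 45, 51 and 74 in the Sham and 15548, 397, 9164 and 2649 in the BCAS libraries. The median of the 5 was 0.38. Atp6v0d2, a proton pump subunit of osteoclasts and macrophages that was too low for the test, had 3, 0, 0 and 0 counts in the Sham and 793, 4, 573 and 66 in the BCAS libraries.

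The genes whose pattern lay nearest to a called factor were sought among 12437 others (12438 for Nr1h3) with a mean of at least 100 counts, by the root-mean-square difference of log2 CPM from the Sham mean over the 8 libraries. Nearest to Spi1 were Vav1, Nckap1l and Fermt3, with differences of 0.0894, 0.0971 and 0.124. Among the genes nearest to Ikzf1 were Fcgr3 (0.0759) and Fermt3 (0.137), and Cebpa lay nearest to Parvg, Itgb5 and Naglu (0.0949, 0.124 and 0.126). Vav1 encodes a guanine nucleotide exchange factor, Nckap1l an actin regulator and Fermt3 an integrin activator of blood cells, while Fcgr3 encodes an Fc receptor.

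The other called factors had other neighbours. Runx1 had none as close, its nearest being Lcp2, Ncf4 and Slfn9 at 0.262, 0.303 and 0.316. Cebpb lay nearest to Nfkbia, an inhibitor of NF-κB, and to Fstl1 and Vat1 (0.128, 0.136 and 0.141), and Nr1h3 to Ddr2, Col16a1 and Plekhf2 (0.118, 0.119 and 0.124), of which Ddr2 encodes a collagen receptor and Col16a1 a collagen chain. Among the 8 factors themselves, Spi1 and Ikzf1 were the closest pair (0.164), followed by Bhlhe41 and Mitf (0.191), and Runx1 and Mitf the most distant (1.95). All of these distances come from the same 8 libraries and describe size and order of change together.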

How the data were processed

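RNA-seq was performed on the right cerebral cortex of 4 Sham and 4 BCAS mice, and groups follow the labels, with 1 mouse per library. The authors trimmed the reads (Trim Galore), aligned them to mm10 with HISAT2, sorted them with SAMtools 1.9 and deposited raw counts of read pairs on exons per gene. The file headers name featureCounts 2.0.1 and GENCODE vM20 and no option for strand, overlapping genes or multiple hits, whereas the labels name featureCounts 1.6.3. Symbols were matched for 54723 of 54752 gene identifiers (99.95%). A gene with several rows (Ddit3) was represented by the row with the most counts.

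Counts were tested with edgeR 4.0.16 in R 4.3.3 (TMM, filterByExpr with a minimum count of 10 and a minimum total of 15, quasi-likelihood F-test without covariates), with Benjamini-Hochberg adjustment over the 17136 genes that passed. A call required an adjusted p below 0.05 together with a log2 fold change beyond 1 in size. The SE is the absolute log2 fold change divided by the square root of F. CPM were scaled by the TMM factors, and TPM used the gene lengths in the tables. Log2 CPM had a prior count of 2. Single values were compared by exact permutation over 70 arrangements. Alternatives used DESeq2 1.42.0, limma 3.58.1, other scalings, filters and left-out mice. The procedure was also run on simulated counts with the same dispersion for all genes and both groups. The BCAS libraries were spread more widely than the Sham libraries, so that run says nothing of calls under such a spread. Figures were drawn with matplotlib 3.10.9.

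The members and gene lists were chosen with earlier results of these data known. All 8 factors are named. From each list of regulators or targets, the genes named were the 2 called genes that rose most and the 2 that fell most, any gene not called where the others were, and the 3 genes nearest in pattern to each called factor. Tfeb, Bhlhe40, Nr1h2, Cbfb, Scd1, Csf2ra, Tmem189 and the genes too low to be tested that are given with counts were chosen after their values were seen. A few genes that this rule would name are not reported here. The CPM of each factor in each group were checked for an outlying value by Dixon's test (16 groups of 4), and none passed its critical value, which says nothing of whole libraries.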

Additional observations from a re-analysis of the deposited data

How the results depend on the processing

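The direction of all 8 factors was the same in every alternative run, and 6 were called under DESeq2, limma-voom, limma on log2(CPM + 1) and robust edgeR. Under these tools 1438 (limma on log2(CPM + 1)) to 1948 (DESeq2) of the 17136 tested genes were called higher. With library size alone 8 factors were called, beside 2023 of 17136 tested genes called higher, and the median log2 fold change of all genes was 0.08. With at least 10 counts in every library 7 factors were called, beside 1426 of 15248 tested genes called higher. Without a threshold on the fold change 5490 genes passed over all genes. Leaving out each mouse gave 1644 (without BCAS 1) to 2967 (without BCAS 2) called genes against 2097, and 5 (without Sham 1) to 8 (without BCAS 2 or BCAS 4) called factors. Of the fits of single factors under the alternatives, 133 gave the call of the text, 9 added a call, for Bhlhe41 or Mitf, and 2 lost that of Cebpb. Spi1, Runx1, Ikzf1, Cebpa and Nr1h3 were called in all of them. With the summed CPM of a list in place of its mean log2 CPM, 5 factors differed from the homeostatic microglia genes instead of 6, and 4 from the pan-myeloid genes instead of 5. The causes were not tested.

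Deviations from the group means had correlations of -0.05, -0.10, -0.01 and 0.00 between same-numbered Sham and BCAS mice. Pairs with different numbers had -0.11 to 0.12. With so few mice this cannot exclude a pairing, and the main test treated the mice as unpaired. With the replicate number as a block, 1809 genes and 6 factors were called, and Mitf had an adjusted p of 0.0519 by edgeR. Runx1 and Nr1h3 had the lowest counts in Sham mice, 17 to 47. With 4 mice in a group, no permutation p below 0.0286 can be reached.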
